A study of Homo sapiens with 6 samples.

Results

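The 9 genes described here encode the transcription factor NRF2, its inhibitor KEAP1 and 7 enzymes or enzyme subunits that are known targets of NRF2. They are NFE2L2, KEAP1, GCLC, GCLM, NQO1, HMOX1, TXNRD1, SRXN1 and ME1. They were taken as a named list, chosen with earlier results of these data known. All 9 were found among the 60658 Ensembl identifiers of the deposited tables. RNA was measured in C4-2B MDVR and CWR22Rv1, a pair of human prostate cancer cell lines resistant to enzalutamide, after 48 h with DMSO, with 10 µM apoptozole (APO) or with 10 µM VER155008 (VER). Both compounds inhibit the ATPase of the chaperone HSP70, and the question was what RNA changes follow that inhibition. C4-2B MDVR cells, derived from C4-2B by long culture with enzalutamide, were kept in 20 µM enzalutamide and CWR22Rv1 cells were not, so line and enzalutamide cannot be told apart. The sample labels give LNCaP-C4-2B as the source and describe the cells as parental, while the sample titles and the study name C4-2B MDVR, which is used here. Each of the 6 conditions was sequenced as a single library. No difference below has a replicate check, an error or a p-value, and what a repeat would change was not tested.

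NRF2, encoded by NFE2L2, is the transcription factor that turns on genes against oxidants and reactive chemicals. In resting cells KEAP1 holds NRF2 and hands it to a CUL3 ubiquitin ligase for destruction. When the cysteines of KEAP1 are modified, NRF2 accumulates, pairs with a small MAF protein and binds antioxidant response elements of its targets. NRF2 is thus controlled mainly as a protein, which RNA levels do not show. Glutathione, the main small thiol of cells, is made from cysteine, glutamate and glycine. Its first step is carried out by glutamate-cysteine ligase, an enzyme of a catalytic subunit (GCLC) and a modifier subunit (GCLM).

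Levels are given in FPKM, fragment numbers relative to transcript length and library size, normalised across the libraries by the authors. A difference is the log2 fold change of FPKM + 0.1, a gene was counted as changed past 1.2-fold, the threshold of the study, and 2-fold was the second limit. Genes above 0.1 FPKM numbered 17603 to 19376 per library. Relative depth, read from the spacing of low values, ran from 1 in C4-2B MDVR with DMSO to 1.64 with APO, and from 1.14 to 1.27 in the others. The mitochondrial chromosome held 14.8% to 16.4% of all FPKM in C4-2B MDVR, while in CWR22Rv1 it held 25.7% under DMSO, 10.4% under APO and 25.7% under VER. Its part in the results was not tested beyond the rescalings. Of the luminal prostate markers, FOXA1 was at 104 to 250.4 FPKM and KRT8 at 147 to 335 FPKM in the 6 libraries. The basal markers summed to at most 0.101 FPKM (KRT5 and TP63 were listed at 0), the endothelial ones to at most 0.294 (PECAM1 at 0), the immune ones to 0.307 to 4.32, the fibroblast ones to 5.27 to 11.1, mainly COL1A1, and the erythroid ones to 0.212 to 39.0, mainly HBA2. In these bulk libraries, fewer expressing cells and less RNA per cell cannot be told apart.

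As shown in the plot of all levels, the 9 genes together were highest in C4-2B MDVR with APO. In C4-2B MDVR their summed FPKM was 406 under DMSO, 851 under APO and 578 under VER, and in CWR22Rv1 it was 266, 498 and 267. For 7 of the 9 genes the C4-2B MDVR APO library held the highest of the 6 values. The exceptions were KEAP1, highest in C4-2B MDVR with VER, and GCLC, highest in CWR22Rv1 with VER. Every gene was measured well above the pseudocount, and the lowest single value was 3.89 FPKM, of HMOX1 in CWR22Rv1 with DMSO.

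**Figure D1:**
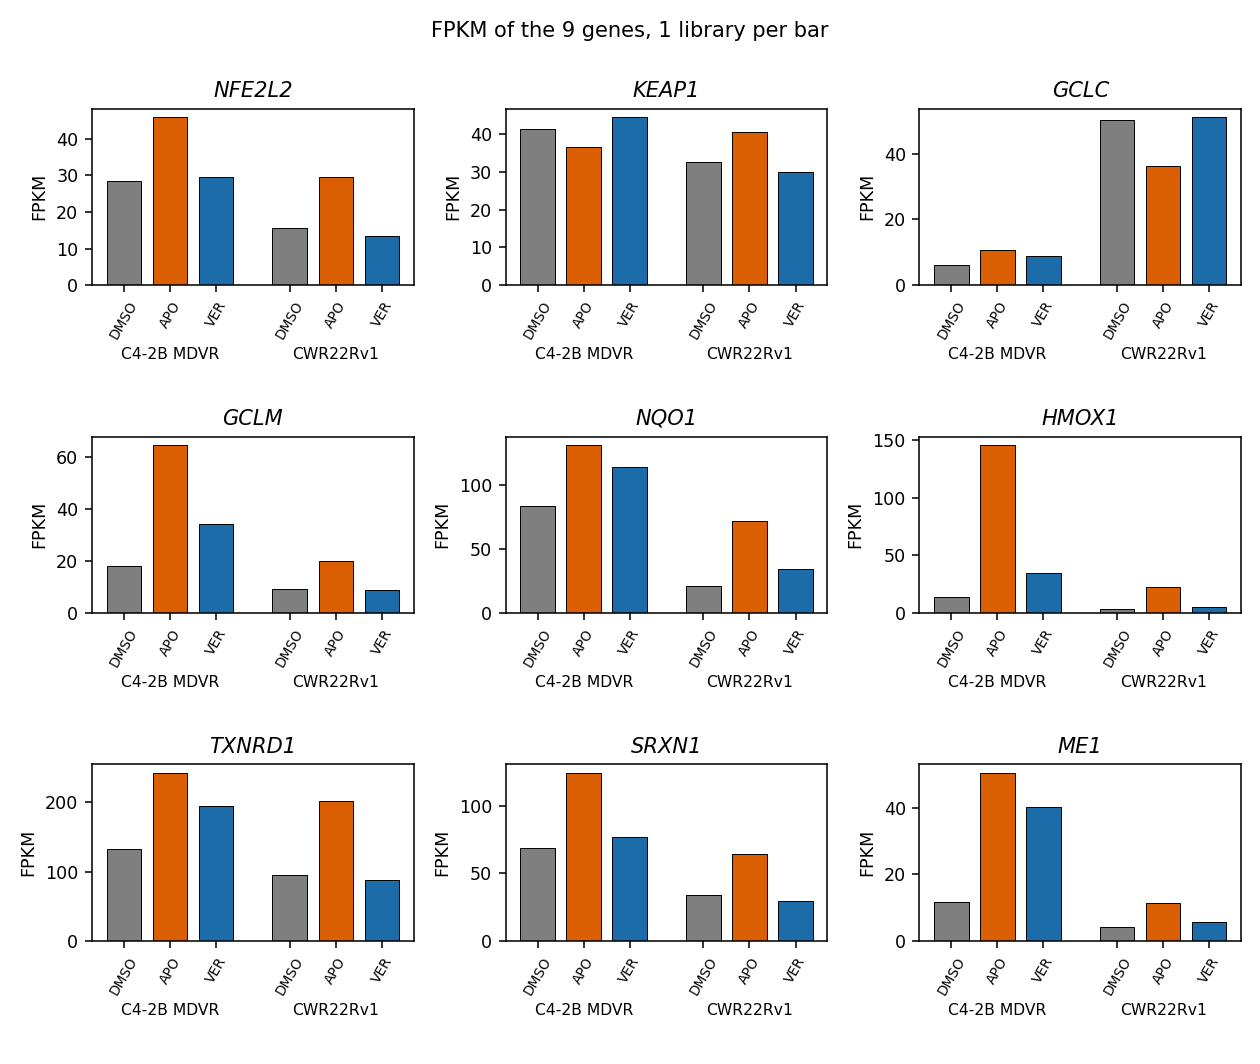
Level of each of the 9 genes in FPKM (y axis, from 0, with its own scale for each gene) in the 6 libraries, 1 bar per library, without error bars because there was 1 library per condition. The APO bar is the highest in both lines for the same 7 genes. It is also the highest for GCLC in C4-2B MDVR and for KEAP1 in CWR22Rv1. KEAP1 runs from 30.0 to 44.6 FPKM, and GCLC is high in CWR22Rv1 (36.2 to 51.2 FPKM) and low in C4-2B MDVR (6.27 to 10.7 FPKM).

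The 2 lines differed before any inhibitor. With DMSO, 8 of the 9 genes were more than 1.2-fold higher in C4-2B MDVR than in CWR22Rv1, against 39.2% of the 20903 genes compared, and 1 was lower, against 43.2%. Past 2-fold, 4 were higher (NQO1, HMOX1, ME1 and SRXN1), against 19.4% of all genes, and 1 was lower (GCLC), against 27.2%. Of the 4325 genes with a mean FPKM in the range of the 9 (20.6 to 159), 11.4% were higher and 8.67% lower past 2-fold. The median log2 difference was 0.94 for the 9 genes and −0.05 for all genes. NQO1 showed the widest gap in favour of C4-2B MDVR, 83.9 against 21.2 FPKM, a 3.95-fold difference. HMOX1 was 3.64-fold, ME1 2.69-fold, SRXN1 2.04-fold, GCLM 1.93-fold, NFE2L2 1.81-fold, TXNRD1 1.40-fold and KEAP1 1.27-fold higher in C4-2B MDVR, the last within 1.2-fold when the libraries were rescaled to a median ratio of 1 (log2 difference 0.24). GCLC went the other way, with 6.27 FPKM in C4-2B MDVR and 50.4 FPKM in CWR22Rv1, an 8.04-fold difference. With 1 library per line, no neighbours in this order can be said to differ.

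**Figure D2:**
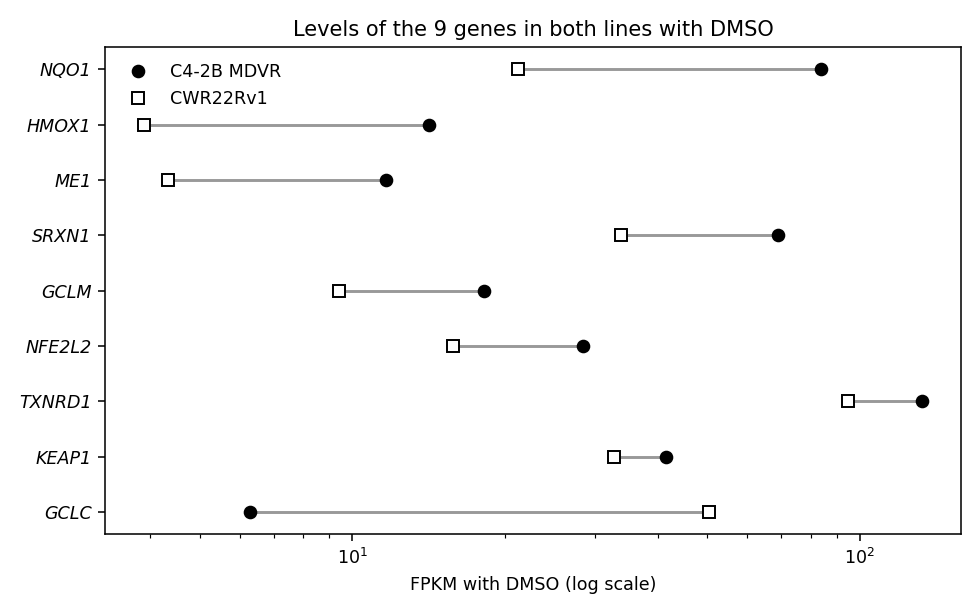
FPKM with DMSO (x axis, log scale) of the 9 genes in C4-2B MDVR (filled circles) and CWR22Rv1 (open squares), 1 library per line, with a line joining the values of a gene. Genes are ordered by the difference, from NQO1 (83.9 against 21.2 FPKM) at the top to GCLC (6.27 against 50.4 FPKM) at the bottom.

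Most of the 9 genes were higher with APO than with DMSO in both lines. In C4-2B MDVR, 8 genes were past 1.2-fold up with APO and none down, against 37.7% and 35.4% of the 20122 genes compared, and KEAP1 was within 1.2-fold. HMOX1, ME1 and GCLM were past 2-fold, against 15.4% of all genes up and 13.3% down. In CWR22Rv1, 8 genes were past 1.2-fold up with APO and GCLC was past it down, against 35.6% and 39.2% of 21608 genes. There HMOX1, NQO1, ME1, TXNRD1 and GCLM were past 2-fold up, against 13.8% of all genes, and no member was past 2-fold down, against 16.8%. Of genes with a mean FPKM in the range of the 9, 6.78% were up and 6.04% down past 2-fold in C4-2B MDVR. In CWR22Rv1 these shares were 6.72% and 7.07%. The median log2 fold change of the 9 genes with APO was 0.85 in C4-2B MDVR and 1.07 in CWR22Rv1, where the medians of all genes were 0.00 and −0.01.

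With VER fewer of the 9 genes passed 1.2-fold, above all in CWR22Rv1. In C4-2B MDVR, 6 genes (ME1, HMOX1, GCLM, TXNRD1, GCLC and NQO1) were past 1.2-fold up and none down, against 35.6% and 34.9% of all genes. ME1 and HMOX1 were past 2-fold, against 14.4% up, and none of the 9 was past 2-fold down, against 13.3%. Of genes with a mean FPKM in the range of the 9, 5.67% were up and 5.97% down by that much. In CWR22Rv1, NQO1, HMOX1 and ME1 were past 1.2-fold up and none down, against 32.1% and 32.3% of all genes, so that the share up (3 of 9) was near the background. No member was past 2-fold with VER in CWR22Rv1, where 10.8% of all genes were up and 8.92% down by that much. Of the 4328 genes with a mean FPKM in the range of the 9 (20.6 to 159), 2.22% were up and 1.94% down past 2-fold. The medians of the 9 genes with VER were 0.48 in C4-2B MDVR and −0.09 in CWR22Rv1, and those of all genes were 0.00 in both. NQO1, HMOX1 and ME1 were the 3 genes past 1.2-fold up in all 4 inhibitor comparisons, as were 1732 of the 18059 genes compared in all of them.

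**Figure D3:**
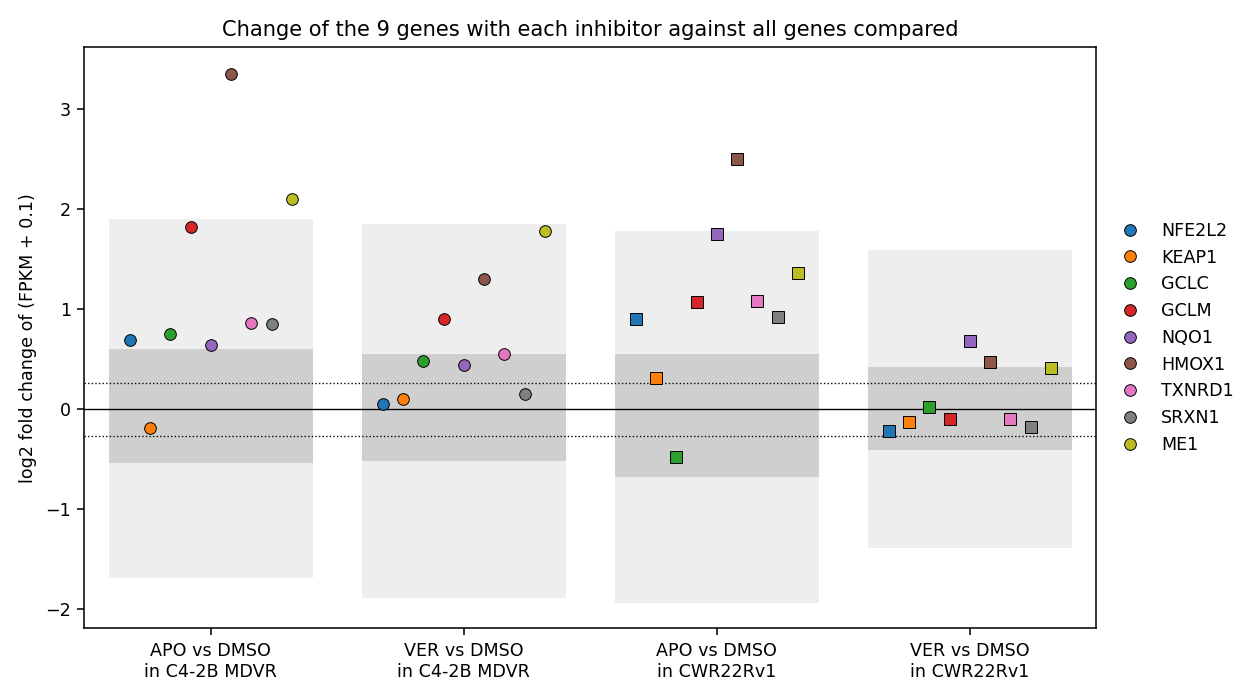
Log2 fold change of FPKM + 0.1 (y axis) of the 9 genes in the 4 inhibitor comparisons (circles, C4-2B MDVR; squares, CWR22Rv1), 1 library against 1. The dark and light bands hold the middle 50% and 90% of all genes compared, and the dotted lines mark 1.2-fold. With APO, HMOX1 lies above the light band in both lines (3.35 and 2.50), while with VER in CWR22Rv1 the genes lie between −0.22 and 0.69.

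NFE2L2 (ENSG00000116044, protein-coding, minus strand, chr2:177227595-177392697 on GRCh38) encodes NRF2 itself. C4-2B MDVR cells held 28.5 FPKM under DMSO, 46.0 under APO and 29.5 under VER. CWR22Rv1 cells held 15.8, 29.6 and 13.6 FPKM. The APO library was thus the highest of each line, and the DMSO and VER libraries lay close together, with log2 fold changes of 0.69 and 0.91 for APO and of 0.05 and −0.22 for VER in C4-2B MDVR and CWR22Rv1. The value of −0.22 crossed 1.2-fold, to −0.28, when the libraries were rescaled to the same sum.

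KEAP1 (ENSG00000079999, minus strand, chr19:10486120-10503741), the adaptor that delivers NRF2 to its ubiquitin ligase, varied least of the 9 genes, from 30.0 to 44.6 FPKM over the 6 libraries. In C4-2B MDVR it stood at 41.5 FPKM under DMSO, 36.5 under APO and 44.6 under VER. In CWR22Rv1 the APO library was instead the highest, at 40.6 FPKM, against 32.7 under DMSO and 30.0 under VER. The log2 fold changes with APO were −0.18 in C4-2B MDVR and 0.31 in CWR22Rv1, and those with VER were 0.10 and −0.12. Both APO values depended on the scale: with libraries of equal sum apart from the mitochondrial chromosome they were −0.35 and 0.16.

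The subunits of glutamate-cysteine ligase were both higher with each inhibitor in C4-2B MDVR but went opposite ways with APO in CWR22Rv1. GCLM (ENSG00000023909, minus strand, chr1:93885205-93909456), the modifier subunit, stood in C4-2B MDVR at 18.2 FPKM under DMSO, 64.7 under APO and 34.2 under VER. The CWR22Rv1 levels were 9.43, 20.0 and 8.83 FPKM. Its log2 fold changes with APO were 1.82 and 1.07, or 3.56-fold and 2.12-fold more FPKM, and with VER they were 0.91 in C4-2B MDVR and −0.09 in CWR22Rv1.

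GCLC (ENSG00000001084, minus strand, chr6:53497341-53616970), the catalytic subunit, stood in C4-2B MDVR at 6.27 FPKM under DMSO, 10.7 under APO and 8.80 under VER. For CWR22Rv1 the levels were 50.4, 36.2 and 51.2 FPKM. All 3 CWR22Rv1 libraries were above all 3 C4-2B MDVR libraries. APO went with a higher level in C4-2B MDVR (log2 fold change 0.76) and with a lower level in CWR22Rv1 (−0.48), and VER with 0.48 and 0.02. The last value changed sign, to −0.04, when the libraries were rescaled to the same sum.

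In C4-2B MDVR, the FPKM of GCLM was 2.90 times that of GCLC under DMSO, 6.07 times under APO and 3.88 times under VER. In CWR22Rv1, the FPKM of GCLC was 5.35 times that of GCLM under DMSO, 1.81 times under APO and 5.80 times under VER. The order of the subunits was therefore opposite in the lines under every treatment, and the ratio of GCLM to GCLC was highest under APO in both. These ratios compare levels per transcript length within a library and do not depend on the scale of the libraries.

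**Figure D4:**
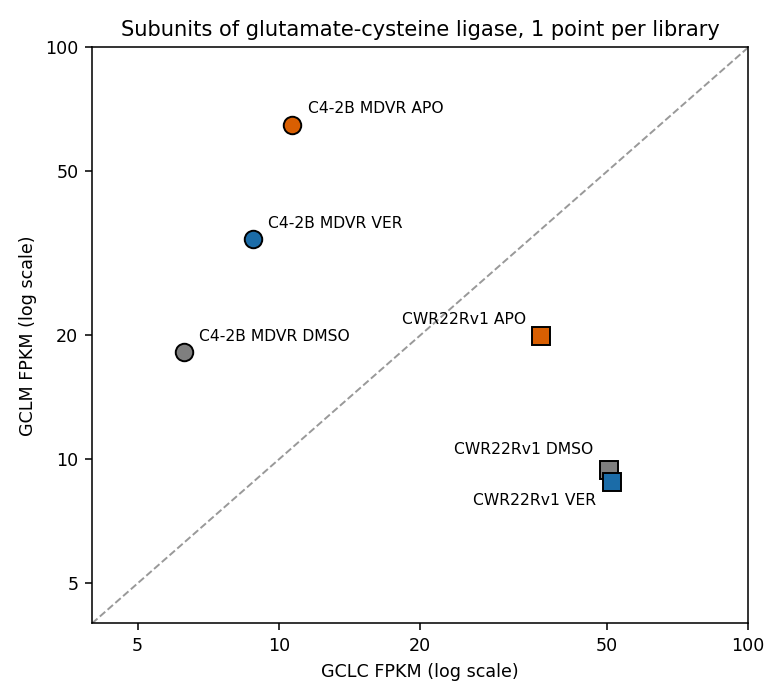
FPKM of GCLM (y axis) against FPKM of GCLC (x axis), both on log scales, 1 point per library (circles, C4-2B MDVR; squares, CWR22Rv1), with the dashed line at equal levels. The C4-2B MDVR libraries lie above the line (GCLM 18.2 to 64.7, GCLC 6.27 to 10.7 FPKM) and the CWR22Rv1 libraries below it (GCLM 8.83 to 20.0, GCLC 36.2 to 51.2 FPKM).

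For both subunits, the 250 bases before the RefSeq start (build GRCh38.p14) are shown, read 5′ to 3′ on the strand of the gene. Capitals mark the core of an antioxidant response element, TGACNNNGC, searched on both strands. The GCLM stretch, chr1:93909431-93909680 on the minus strand, holds 1 such core, which reads GCTTAGTCA here because it lies on the opposite strand, from −34 to −26 with the start counted as 1. The GCLC stretch, chr6:53545102-53545351 on the minus strand, holds none. Whether the core bears on the level of either gene was not tested. Of all windows searched, described below, 13.3% held a core, and elements further from a start were not searched.
GCLM: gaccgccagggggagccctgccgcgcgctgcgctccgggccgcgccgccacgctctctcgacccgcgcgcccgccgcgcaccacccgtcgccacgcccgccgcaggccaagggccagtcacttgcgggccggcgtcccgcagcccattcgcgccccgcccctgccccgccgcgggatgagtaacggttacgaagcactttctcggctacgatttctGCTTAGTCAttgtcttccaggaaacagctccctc
GCLC: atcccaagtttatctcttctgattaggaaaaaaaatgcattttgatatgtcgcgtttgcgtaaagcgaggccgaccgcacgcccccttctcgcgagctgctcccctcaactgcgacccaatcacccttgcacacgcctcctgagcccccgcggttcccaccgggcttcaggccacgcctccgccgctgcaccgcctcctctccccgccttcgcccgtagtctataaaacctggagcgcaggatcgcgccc

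HMOX1 (ENSG00000100292, plus strand, chr22:35380361-35394214) encodes haem oxygenase, which breaks haem down to biliverdin, iron and carbon monoxide. C4-2B MDVR held 14.1 FPKM under DMSO, 145 under APO and 34.9 under VER, and CWR22Rv1 held 3.89, 22.5 and 5.45 FPKM. In both lines the order was DMSO, VER, APO. With APO the level was 10.3-fold higher in C4-2B MDVR (log2 fold change 3.35) and 5.79-fold higher in CWR22Rv1 (2.50), the largest change of the 9 genes in each. Among all genes, 218 of 20122 and 436 of 21608 had a higher log2 fold change in the same comparison. With VER it was 2.47-fold and 1.40-fold higher, at log2 fold changes of 1.30 and 0.48.

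NQO1 (ENSG00000181019, minus strand, chr16:69706996-69726951), which reduces quinones in a single step to hydroquinones, stood in C4-2B MDVR at 83.9 FPKM under DMSO, 131 under APO and 114 under VER. The levels in CWR22Rv1 were 21.2, 71.9 and 34.2 FPKM, so that all CWR22Rv1 libraries stayed below the C4-2B MDVR DMSO library. The difference with APO was 1.56-fold in C4-2B MDVR and 3.39-fold in CWR22Rv1, and that with VER was 1.36-fold and 1.61-fold. NQO1 was the only 1 of the 9 genes with a higher signed log2 fold change in CWR22Rv1 than in C4-2B MDVR for both inhibitors.

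TXNRD1 (ENSG00000198431, plus strand, chr12:104215779-104350305), the cytosolic thioredoxin reductase, was the most abundant of the 9 genes in every library. C4-2B MDVR held 133 FPKM under DMSO, 242 under APO and 195 under VER, and CWR22Rv1 held 94.9, 201 and 88.5 FPKM. In C4-2B MDVR the log2 fold changes were 0.87 for APO and 0.56 for VER, and in CWR22Rv1 1.08 and −0.10. A processed pseudogene, RPL18AP3, lies within the gene on the same strand and was itself at 15.8 to 30.2 FPKM.

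SRXN1 (ENSG00000271303, minus strand, chr20:646615-653370) encodes sulfiredoxin, which repairs overoxidised peroxiredoxins. Its levels in C4-2B MDVR were 68.8 FPKM under DMSO, 124 under APO and 76.6 under VER. Its levels in CWR22Rv1 were 33.8, 64.2 and 29.8 FPKM. As for NFE2L2, the APO library was the highest of each line, at log2 fold changes of 0.85 and 0.92, and the VER library lay within 1.2-fold of DMSO, at 0.15 and −0.18. A second annotated gene, AL121758.1, overlaps SRXN1 on the same strand and was at no more than 0.311 FPKM.

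ME1 (ENSG00000065833, minus strand, chr6:83210389-83431071), the cytosolic malic enzyme that makes NADPH from malate, was past 2-fold up with both inhibitors in C4-2B MDVR. This line held 11.6 FPKM under DMSO, 50.4 under APO and 40.3 under VER, which is 4.33-fold and 3.47-fold higher. CWR22Rv1 held 4.33, 11.3 and 5.81 FPKM, which is 2.61-fold and 1.34-fold higher. With VER, ME1 had the largest log2 fold change of the 9 genes in C4-2B MDVR (1.79). The 250 bases before its start, chr6:83431052-83431301 on the minus strand, hold 1 core of an antioxidant response element from −137 to −129, shown in capitals, in which the first 7 letters also read TGACTCA, the AP-1 site.
ME1: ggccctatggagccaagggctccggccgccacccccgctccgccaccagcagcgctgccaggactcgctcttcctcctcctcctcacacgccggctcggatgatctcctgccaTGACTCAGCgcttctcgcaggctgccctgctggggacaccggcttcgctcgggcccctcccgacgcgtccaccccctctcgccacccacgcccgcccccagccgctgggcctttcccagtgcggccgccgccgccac

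A direct comparison of the inhibitors, at the same dose and time, put most of the 9 genes lower with VER than with APO. In CWR22Rv1, 8 genes were past 1.2-fold lower with VER, against 34.5% of all genes, and GCLC was higher (log2 difference 0.50), against 37.3%. NFE2L2, GCLM, NQO1, HMOX1, TXNRD1 and SRXN1 were past 2-fold lower, against 10.5% of all genes, none was past 2-fold higher, against 15.6%, and the median log2 difference was −1.10. Of genes with a mean FPKM in the range of the 9, 3.67% were lower and 5.36% higher past 2-fold. In C4-2B MDVR, 7 genes were past 1.2-fold lower with VER, against 32.5% of all genes, KEAP1 was higher (0.29), against 28.5%, and NQO1 lay within 1.2-fold (−0.20). HMOX1, the 1 member past 2-fold lower in C4-2B MDVR, against 10.5% of all genes down and 8.68% up, differed most in both lines, by −2.06 there and by −2.03 in CWR22Rv1. Of genes in that FPKM range, 2.29% were lower and 1.74% higher past 2-fold in C4-2B MDVR. The C4-2B MDVR differences of GCLC (−0.27), TXNRD1 (−0.31) and ME1 (−0.32) were small, and with libraries rescaled to the same sum they were −0.13, −0.16 and −0.17, within 1.2-fold. That rescaling also moved all genes: of those past 1.2-fold between VER and APO in C4-2B MDVR, 5740 were higher and 6536 lower as deposited, and 7535 higher and 5016 lower after it. In CWR22Rv1 the split went from 8061 higher and 7460 lower to 6758 higher and 9323 lower. Without the mitochondrial chromosome the C4-2B MDVR split was 7949 higher and 4793 lower. APO and VER are unlike in structure, and their effective strengths at this dose were not measured here.

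Between the lines, the signed log2 fold change with VER was higher in C4-2B MDVR for 8 of the 9 genes, all but NQO1, though for NFE2L2, KEAP1 and SRXN1 it was within 1.2-fold in both lines and smaller in size in C4-2B MDVR. The difference of the log2 fold changes, C4-2B MDVR minus CWR22Rv1, was 1.37 for ME1, 0.82 for HMOX1, 0.66 for TXNRD1, 0.46 for GCLC and −0.24 for NQO1. With APO it was above 0 for 4 genes, GCLC (1.23), HMOX1 (0.85), GCLM (0.75) and ME1 (0.74), and below 0 for NQO1 (−1.11), KEAP1 (−0.49), NFE2L2 (−0.22), TXNRD1 (−0.22) and SRXN1 (−0.07). These differences of differences rest on 4 libraries each and were not tested.

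The 300-base windows from 250 bases before to 50 after a RefSeq start were searched for the core TGACNNNGC in all genes, and 13.3% of 35116 windows held it. HMOX1 had no window in the table. Of the 11 windows of the other 8 genes, 5 held a core. At least 1 core was found in 4 of the 8 genes (KEAP1, GCLM, TXNRD1 and ME1), against 16.1% of the 27305 genes with a window. Of the pathway genes listed below, 18 of the 96 with a window had a core. NFE2L2, GCLC, NQO1 and SRXN1 had none in their windows. TXNRD1 has a pair of annotated starts, and both windows held cores, TGACTTCGC from −99 to −91 and GCTCCGTCA from −8 to 1 at the first and GCTTTGTCA from −102 to −94 at the second. In KEAP1 the second start had TGACACGGC from −54 to −46 and GCTTAGTCA from −31 to −23, and the first start had none. The genes with a core thus include KEAP1, which varied least, and ME1, which was higher with both inhibitors in both lines. Elements outside these windows were not searched.

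The rest of the pathway was described with 9 lists of 116 genes, none of them among the 9 genes above. In C4-2B MDVR, 55 of the 113 genes compared were past 1.2-fold up with APO and 20 down, against 37.7% and 35.4% of all genes, and 54 were up and 26 down with VER, against 35.6% and 34.9%. In CWR22Rv1, 43 of 116 were up and 36 down with APO, against 35.6% and 39.2%, and 31 up and 35 down with VER, against 32.1% and 32.3%. The APO counts depended on the scale. When the libraries had the same sum they were 47 up and 33 down in C4-2B MDVR, against 6456 and 8508 of all 20122 genes. In CWR22Rv1 they were 50 up and 32 down, against 8715 and 7669 of 21608. Without the mitochondrial chromosome they were 47 up and 36 down in C4-2B MDVR, against 6382 and 8624 of all genes. In CWR22Rv1 they were then 35 up and 47 down, against 6550 and 9786. These counts of all genes are also the background of the APO counts rescaled in these ways in the lists that follow. As deposited, the medians of the listed genes were 0.20 (APO) and 0.18 (VER) in C4-2B MDVR and 0.02 and −0.03 in CWR22Rv1. The medians of all genes lay between −0.01 and 0.00. With DMSO, 48 of 115 were higher in C4-2B MDVR and 43 lower, against 39.2% and 43.2% of all genes. The share higher was thus near the background. With libraries rescaled to a median ratio of 1 the counts were 44 and 47, against 7518 and 9662 of all 20903 genes. The 5 genes past 2-fold up in all 4 inhibitor comparisons were SLC7A11, SLC3A2, CHAC1, SESN2 and ALDH3A1, and MTHFD1 was the 1 gene past 2-fold down in all 4. Among all genes 240 and 226 of 18059 did so.

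**Figure D5:**
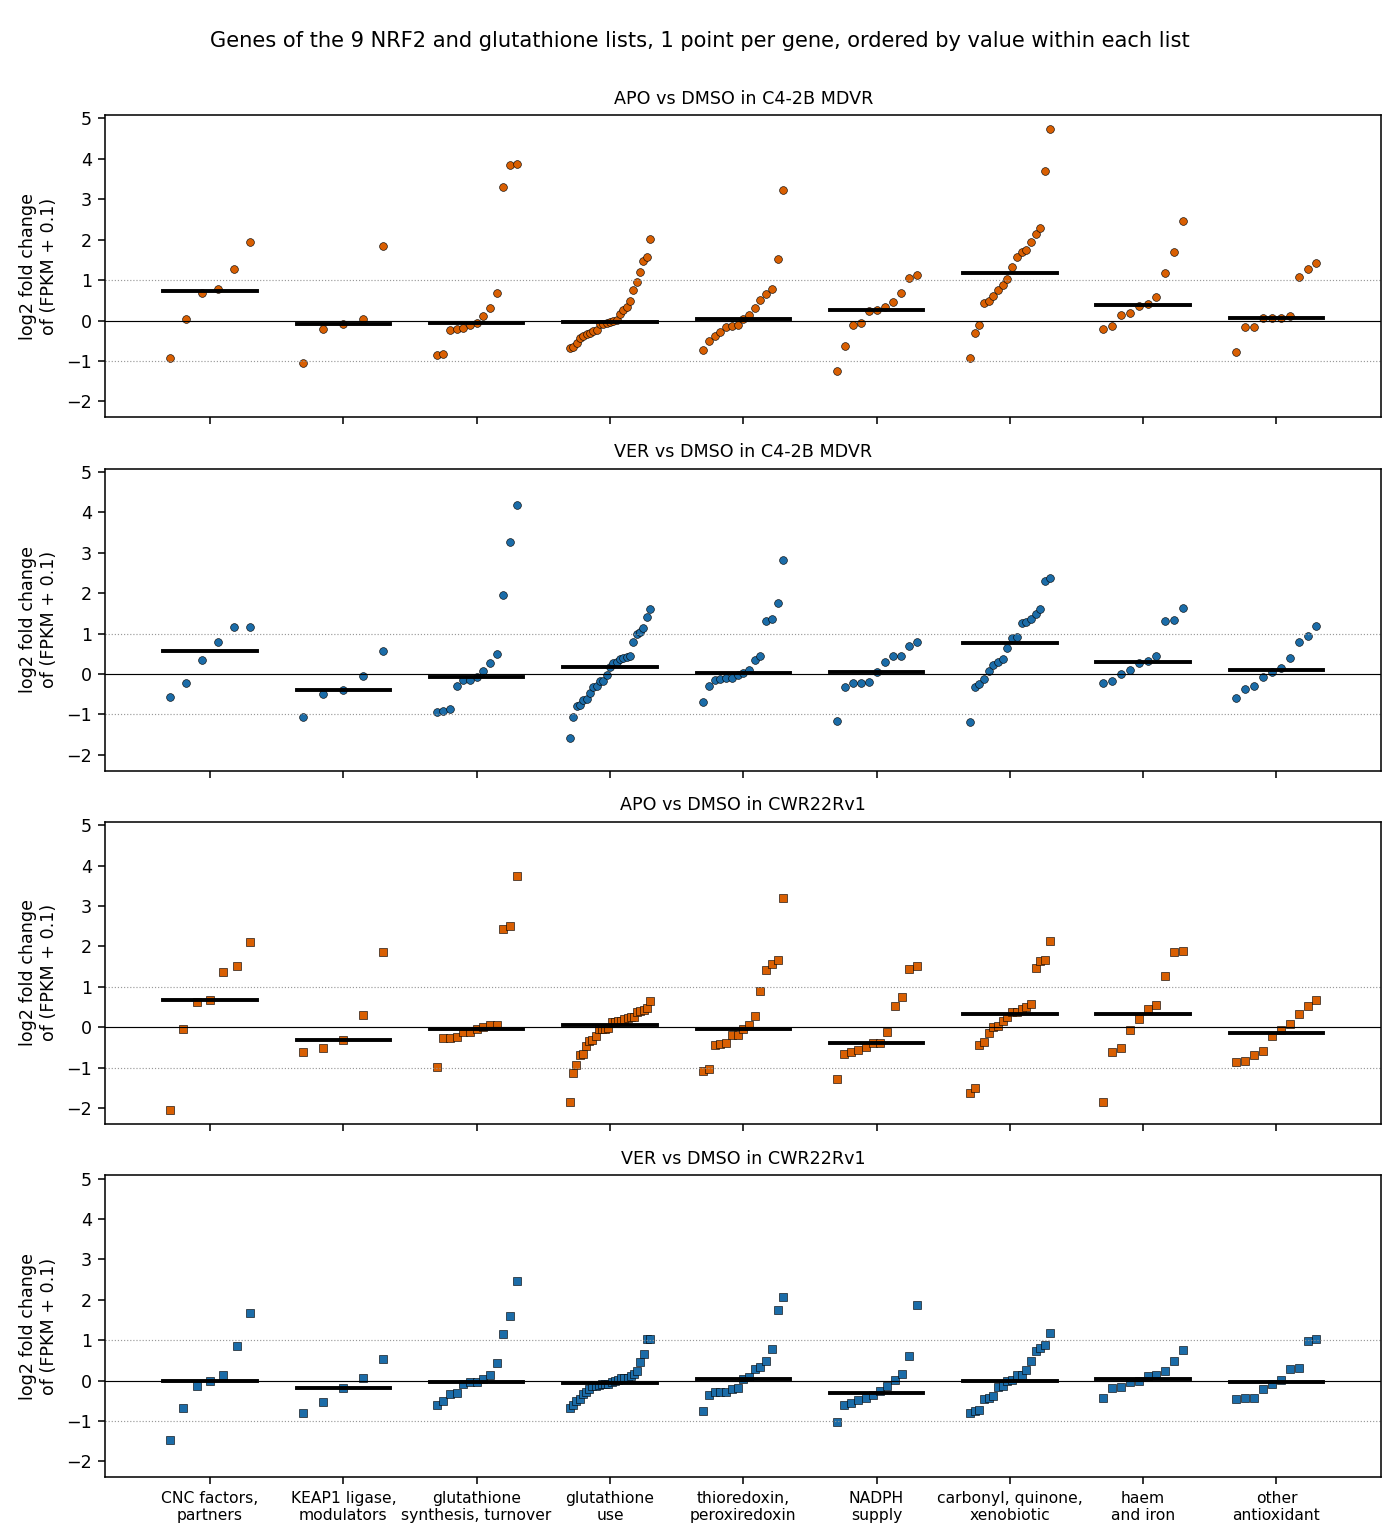
Log2 fold change of FPKM + 0.1 (y axis) of the listed pathway genes, 1 point per gene, ordered by value within each of the 9 lists (x axis), in 1 panel per inhibitor comparison, with the list median as a bar and 2-fold as dotted lines. The carbonyl, quinone and xenobiotic enzymes have the highest median in C4-2B MDVR (1.18 with APO, 0.77 with VER) and a median of −0.00 with VER in CWR22Rv1. Several genes of this list were under 1 FPKM in C4-2B MDVR with DMSO.

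Of the CNC factors, the family of NRF2, and their small MAF and BACH partners, 4 of 6 were past 1.2-fold up in C4-2B MDVR with APO, against 37.7% of all genes, and 1 was down, against 35.4%. In CWR22Rv1, 5 of 7 were up, against 35.6%, and 1 was down, against 39.2%. With VER 4 were up and 1 down in C4-2B MDVR (35.6% and 34.9% of all genes), and 2 up and 2 down in CWR22Rv1 (32.1% and 32.3%). The same shares of all genes are the background of the lists that follow. NFE2L1, which drives proteasome genes, was at 88.6, 213 and 197 FPKM under DMSO, APO and VER for C4-2B MDVR and at 49.1, 126 and 89.4 FPKM in CWR22Rv1. NFE2L3 was lower with both inhibitors, at 16.7, 8.79 and 11.1 FPKM in C4-2B MDVR and at 4.84, 1.09 and 1.68 FPKM in CWR22Rv1. MAFF, a small MAF protein, was at 0.736, 3.14 and 1.78 FPKM in C4-2B MDVR and at 3.96, 11.4 and 3.59 FPKM in CWR22Rv1.

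Among the 5 genes of the KEAP1 ligase and its modulators, SQSTM1 stood apart. Its product p62 binds KEAP1 and carries it to autophagosomes. SQSTM1 was at 207, 744 and 306 FPKM in C4-2B MDVR and at 73.9, 271 and 106 FPKM in CWR22Rv1, with log2 fold changes of 1.85 and 1.87 for APO and of 0.56 and 0.52 for VER. The other named genes of this list were PGAM5 and DPP3. PGAM5, a mitochondrial phosphatase that binds KEAP1, was at 76.4, 37.0 and 36.3 FPKM in C4-2B MDVR and at 76.2, 53.8 and 43.8 FPKM in CWR22Rv1. DPP3, a peptidase that binds KEAP1, had log2 fold changes for C4-2B MDVR of −0.20 under APO and −0.06 under VER, both within 1.2-fold, and of −0.61 and −0.52 in CWR22Rv1. Over the list, 1 gene was up and 1 down with APO and 1 up and 3 down with VER in C4-2B MDVR, and 2 up and 3 down with APO and 1 up and 2 down with VER in CWR22Rv1.

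The largest changes around glutathione were in cystine import and in glutathione breakdown. SLC7A11 and SLC3A2 form the cystine-glutamate exchanger that brings in cystine for glutathione. SLC7A11 was at 6.91, 100.2 and 67.0 FPKM in the order DMSO, APO and VER for C4-2B MDVR and at 10.4, 56.5 and 32.0 FPKM in CWR22Rv1. SLC3A2 was at 126, 1251 and 490 FPKM in C4-2B MDVR and at 261, 1496 and 582 FPKM in CWR22Rv1. CHAC1, which degrades glutathione, was at 5.80, 86.5 and 106 FPKM in C4-2B MDVR and at 2.22, 30.8 and 12.8 FPKM in CWR22Rv1. SLC7A11 is known as a target of both NRF2 and ATF4, and CHAC1 as a target of ATF4. Over the 13-gene list, with APO 5 were up and 2 down in C4-2B MDVR and 3 up and 1 down in CWR22Rv1, with VER 5 up and 4 down and then 4 up and 4 down, and the list medians lay between −0.08 and −0.03. Of all genes, 37.7% were up and 35.4% down with APO in C4-2B MDVR, and 35.6% and 39.2% in CWR22Rv1. With libraries of the same sum, the APO counts in C4-2B MDVR turned to 4 up and 5 down. In CWR22Rv1 they were 3 up and 3 down at a median ratio of 1, and 3 up and 6 down at the same sum without the mitochondrial chromosome. Of all 21608 genes, 7535 were up and 8643 down with APO at that median ratio.

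Enzymes that use glutathione moved in both directions. In C4-2B MDVR, 9 of 25 were up and 7 down with APO and 12 up and 9 down with VER. In CWR22Rv1, 6 of 26 were up and 8 down with APO and 4 up and 6 down with VER. With libraries of the same sum the APO counts turned to 7 up and 9 down in C4-2B MDVR and to 11 up and 6 down in CWR22Rv1, and without the mitochondrial chromosome to 3 up and 9 down in CWR22Rv1. GPX8, a peroxidase of the endoplasmic reticulum, was at 10.6, 29.6 and 32.8 FPKM in C4-2B MDVR and at 11.3, 15.8 and 23.1 FPKM in CWR22Rv1. The glutathione transferase genes GSTO2 and GSTM4 differed mainly between the lines, at 0.906 and 0.199 FPKM in C4-2B MDVR with DMSO and at 22.8 and 13.4 FPKM in CWR22Rv1. In C4-2B MDVR GSTO2 was at 2.92 FPKM under APO and 1.91 under VER, and in CWR22Rv1 at 30.2 and 21.5 FPKM. GSTM4 was lower in all 4 comparisons, at log2 fold changes between −1.58 and −0.47, and its C4-2B MDVR value under VER was 0.

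Of the 15 thioredoxin and peroxiredoxin genes, 6 were past 1.2-fold up in each of the 4 comparisons, while in C4-2B MDVR 4 were down under APO and 2 under VER, and in CWR22Rv1 5 were down under each. Of all genes, 32.1% to 37.7% were up and 32.3% to 39.2% down in the 4 comparisons. With libraries of the same sum the APO counts in C4-2B MDVR were 5 up and 7 down. At a median ratio of 1 the VER counts in CWR22Rv1 were 6 up and 2 down, against 7223 and 6671 of all 21608 genes. SESN2, a sestrin that acts on peroxiredoxins and on mTORC1, was at 5.88, 56.5 and 42.2 FPKM in C4-2B MDVR and at 6.25, 57.8 and 21.1 FPKM in CWR22Rv1. SESN1 was at 9.23, 14.6 and 31.1 FPKM and at 5.53, 17.8 and 23.7 FPKM, higher with VER than with APO in both lines. PRDX5, a peroxiredoxin of mitochondria and peroxisomes, was at 109.6, 318 and 273 FPKM in C4-2B MDVR and at 99.9, 297 and 170.5 FPKM in CWR22Rv1.

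Of the genes that supply NADPH, 6 of 11 were up and 2 down with APO in C4-2B MDVR, against 37.7% and 35.4% of all genes. In CWR22Rv1, 4 of 12 were up and 7 down, against 35.6% and 39.2%, so that the share up was near the background. With VER, 5 were up and 2 down in C4-2B MDVR, against 35.6% and 34.9%, and 2 up and 6 down in CWR22Rv1, against 32.1% and 32.3%. With libraries of the same sum the APO counts in C4-2B MDVR were 4 up and 2 down. IDH1, the cytosolic isocitrate dehydrogenase, was at 229, 478 and 372 FPKM in C4-2B MDVR and at 137, 370.0 and 209 FPKM in CWR22Rv1. ME2, the mitochondrial relative of ME1, was at 15.3, 33.4 and 20.8 FPKM and at 21.9, 36.7 and 17.1 FPKM. MTHFD1, a folate enzyme, was lower in all 4 comparisons, at 98.3, 41.5 and 43.5 FPKM in C4-2B MDVR and at 61.7, 25.6 and 30.1 FPKM in CWR22Rv1.

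The carbonyl, quinone and xenobiotic enzymes, the list nearest to NQO1 in function, had 15 of 18 genes up and 2 down with APO in C4-2B MDVR, against 37.7% and 35.4% of all genes. Past 2-fold up were 10 of them, against 15.4%. Most of these were low: AKR1B1, AKR1C1, AKR1C2, AKR1C3, ALDH3A1, ABCC2 and ABCC3 were at 0 to 0.484 FPKM with DMSO in this line. With VER 12 were up and 2 down in this line, against 35.6% and 34.9%. In CWR22Rv1, 9 were up and 4 down with APO, against 35.6% and 39.2%, and 6 up and 6 down with VER, against 32.1% and 32.3%. With DMSO, 10 genes were past 1.2-fold lower in C4-2B MDVR and 5 higher, against 43.2% and 39.2% of all genes, and the median log2 difference was −0.90. AKR1C1 and AKR1C2, which reduce ketosteroids, differed in both respects. AKR1C2 was at 0.474, 15.2 and 2.89 FPKM in C4-2B MDVR and at 14.5, 45.6 and 13.1 FPKM in CWR22Rv1, and AKR1C1 was at 0.484, 7.52 and 1.67 FPKM and at 4.25, 6.10 and 3.25 FPKM. The AKR1C genes are near-identical copies, so the split of fragments among them is uncertain. OSGIN1, a gene induced by oxidative stress, was at 5.80, 17.6 and 16.4 FPKM and at 2.07, 9.38 and 2.52 FPKM. ALDH3A1, an aldehyde dehydrogenase, was past 2-fold up in all 4 comparisons at levels of only 0.144 to 1.16 FPKM.

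Around haem and iron, 6 of 10 genes were up and none down with APO in C4-2B MDVR, against 37.7% and 35.4% of all genes, and 4 up and 2 down when the libraries had the same sum. With VER 5 were up and none down in this line, against 35.6% and 34.9%. In CWR22Rv1, 5 were up and 3 down with APO, against 35.6% and 39.2%, and 2 up and 1 down with VER, against 32.1% and 32.3%. FTH1, the heavy chain of the iron store ferritin, was at 1504, 8279 and 3790 FPKM in C4-2B MDVR and at 707, 2570 and 701 FPKM in CWR22Rv1, with log2 fold changes under VER of 1.33 in C4-2B MDVR and −0.01 in CWR22Rv1. BLVRB, a biliverdin reductase that acts after haem oxygenase, was at 92.8, 299.9 and 229 FPKM and at 58.7, 216 and 99.1 FPKM. TFRC, the transferrin receptor, was at 177, 152 and 152 FPKM and at 151, 41.7 and 113 FPKM, lowest in CWR22Rv1 with APO.

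Finally, genes whose level followed a member most closely over the 6 libraries were sought, where the mean was 1 FPKM or more (14240 genes), by Pearson's r of log2(FPKM + 0.1). These r values describe 6 points that share a line, a treatment and a scale in part, and 156 to 867 genes had an r over 0.95 with a given member. NFE2L2 was closest to DAPK2, SRXN1 and GIGYF2 (r of 0.99 each). GCLM was closest to TRIM39, DYRK3 and SH3BP4, and HMOX1 to COBLL1, SH3BP4 and PLEKHH3. TXNRD1 was closest to MAP2K2, STK40 and IRAK2, SRXN1 to SHTN1, PQBP1 and SMOX, NQO1 to EIF3H, MED8 and RNF6, and ME1 to COPE, TRPC4AP and DUSP22. GCLC was closest to AIFM3, VSTM2L and ADGRB1, which like GCLC separate the lines. Among the members themselves, GCLC had an r between −0.82 and −0.56 with each of the others, and the highest values were those of NFE2L2 with SRXN1 (0.99) and of GCLM with HMOX1 (0.99).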

How the data were processed

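RNA-seq was done on both lines, C4-2B MDVR and CWR22Rv1, with 1 library per condition and groups taken from the sample titles. The labels describe a stranded kit with selection of polyadenylated RNA, and the study another kit. The authors aligned the reads with HISAT to GRCh38, ran Cufflinks and deposited FPKM values of genes, which Cuffnorm had put on a common scale across libraries, per the submitters' processing notes. The study also names StringTie. Versions and the annotation release are not given in the sources used here. The FPKM status column was not used.

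Identifiers were matched to GENCODE 29, where 57047 of 60658 had a symbol, and coordinates are those of that release on GRCh38. Fold changes are differences of log2(FPKM + 0.1), which understates changes of low genes, for genes above 0.1 FPKM in any of the line's 3 libraries, or in any of the 2 DMSO libraries when lines were compared. FPKM values are not counts and whole reads were not recovered, so no count test, interval or detection limit was computed and depth is known only in relative terms. A gene at 0 is given as listed at 0. The 9 members and the lists were chosen with earlier results of these data known. Named from each list were the 3 genes whose mean log2 fold change over the 4 inhibitor comparisons was largest in size. Only genes averaging 1 FPKM or more were ranked, and changes in opposite directions cancel in such a mean. Any gene past 2-fold in 1 direction in all 4 was also named. For members spanning more than 1 on the log2 scale, the 3 most similar genes were named. HMOX1 has no promoter window in the RefSeq table.

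Alternatives were pseudocounts of 0.01 and 1, no filter, a filter at 1 FPKM, limits of 1.5-fold and 2-fold, and rescaling of the libraries to a median ratio of 1, to the same sum (TPM), and to the same sum without the mitochondrial chromosome. Some cell type markers are not reported here. The fold change function and the rescaling to a median ratio of 1 were tested on copies of the data with known changes put in. The other steps were not tested in this way. Python 3.11.15, pandas 2.3.3, numpy 2.4.6 and matplotlib 3.10.9 were used.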

Additional observations from a re-analysis of the deposited data

Results flagged for a closer look

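In 3 genes, an inhibitor went with a change past 1.2-fold in opposite directions in the lines, each on 1 library against 1. The differences between the lines were not tested. GCLC, the catalytic subunit of glutamate-cysteine ligase, had a log2 fold change with APO of 0.76 in C4-2B MDVR and of −0.48 in CWR22Rv1. ME2, the mitochondrial malic enzyme, had a log2 fold change with VER of 0.44 in C4-2B MDVR and of −0.36 in CWR22Rv1, while with APO it was higher in both. AKR1C1 had a log2 fold change with VER of 1.60 in C4-2B MDVR, from a DMSO level of 0.484 FPKM, and of −0.38 in CWR22Rv1, from 4.25 FPKM.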

How the results depend on the processing

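Of 63 recomputed counts of changed members, 52 stayed within 1.5 times the count reported, and no recomputed value of a single member past 1.2-fold changed direction. At 2-fold the counts of changed members were, in C4-2B MDVR, 3 for APO and 2 for VER, in CWR22Rv1, 5 for APO and 0 for VER, 5 between the lines and 1 between VER and APO in C4-2B MDVR. At 1.5-fold they were 3 with VER in C4-2B MDVR, 1 with VER in CWR22Rv1 and 4 between VER and APO in C4-2B MDVR, where 46.1%, 36.6% and 33.1% of all genes changed by that much. The last comparison gave 8 as deposited and 5 when the libraries had the same sum, with or without the mitochondrial chromosome. KEAP1 crossed 1.2-fold with the scale in 3 comparisons, to −0.33 and −0.35 for APO in C4-2B MDVR, 0.16 for APO in CWR22Rv1 and to 0.24 and 0.21 between the lines, and GCLC with VER in CWR22Rv1 went from 0.02 to −0.04. Among genes above 1 FPKM, the same sum moved the median of all genes with APO to −0.12 in C4-2B MDVR and 0.10 in CWR22Rv1, and without the mitochondrial chromosome to −0.14 and −0.16, against 0.02 and −0.01 as deposited. No paired analysis was possible because each condition has 1 library, and for the same reason no replicate could be left out. The depth behind a value is unknown in reads, which limits the genes under about 1 FPKM most.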

Other observations

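Of the 10 other antioxidant enzymes, 3 were past 1.2-fold up and 1 down with APO in C4-2B MDVR. The shares of all genes were 37.7% and 35.4%. With VER 4 were up and 3 down in this line, against 35.6% and 34.9%. In CWR22Rv1, 3 were up and 4 down with APO, against 35.6% and 39.2%. There 4 were up and 3 down with VER, against 32.1% and 32.3%. With libraries of the same sum, the counts were 3 up and 3 down for APO in C4-2B MDVR, against 6456 and 8508 of all 20122 genes. For VER in CWR22Rv1 they were then 2 up and 4 down, against 6345 and 7787 of 21608. SELENOS, a selenoprotein of the endoplasmic reticulum membrane, was higher in all 4 comparisons, at 55.2, 149 and 126 FPKM in the order DMSO, APO and VER for C4-2B MDVR and at 72.6, 116 and 147 FPKM in CWR22Rv1. MSRB2, a mitochondrial methionine sulfoxide reductase, was at 5.92, 14.4 and 11.4 FPKM and at 12.0, 17.5 and 12.2 FPKM. SOD2, the mitochondrial superoxide dismutase, was lower in all 4 comparisons, at 30.6, 17.8 and 24.9 FPKM and at 66.3, 37.3 and 49.4 FPKM.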
